A study of Canis lupus familiaris with 22 samples.

Results

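The erythroid and haem synthesis genes followed here are ALAS2, FECH, AHSP, HBM, SLC4A1, EPB42, ANK1, GATA1 and KLF1. They were read from the probes that carried one of these 9 names on a canine Agilent microarray. This gave 9 probes of 7 genes, out of 34382 gene names and 43603 different probes on the array. No probe carried the name HBM or GATA1, so these 2 genes were not analysed here. The genes were chosen by their measured log ratios, which tended to be higher in atopic than in healthy dogs, most of all after therapy. Their group differences are therefore given as a description, without p-values.

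Red cell precursors make haem and globin in large amounts, and mature mammalian red cells have no nucleus but can still hold RNA while they are young reticulocytes. ALAS2 catalyses the first step of haem synthesis in erythroid cells, and FECH inserts iron into protoporphyrin in the last step. Circulating blood carries such transcripts through reticulocytes, while the nucleated cells of blood are mostly leukocytes.

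The samples were venous blood of privately owned dogs of several breeds. The labels give whole blood, whereas the methods speak of peripheral blood nuclear cells. The 3 groups were 8 healthy dogs (ctrl), 7 dogs with canine atopic dermatitis (cAD) before allergen-specific immunotherapy (ASIT), and the same 7 dogs after 6 months of ASIT. On each of the 22 arrays Cy5 marked the RNA of 1 dog, and Cy3 marked RNA pooled from the blood of further healthy dogs, which served as the reference throughout. The ASIT was made for each patient from its own skin test results and given under the skin in increasing concentrations. The labels give no age, sex or breed for a single sample. By the methods, the breeds, the shares of females and males and the age ranges were not the same in the cAD and ctrl groups. The ctrl dogs were donors of a veterinary blood bank. The part of blood donation in the values of the erythroid genes was not tested. According to the methods, the blood morphology of all dogs lay within the reference range.

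Every value below is the log2 ratio of Cy5 to Cy3 unless another quantity is named, so that 0 means a level equal to the reference pool. The microarrays came from 6 slides and 4 days of scanning. Slides 1 and 2, which were read on the first of these days, held ctrl dogs and nothing else, so group and slide cannot be told apart in the comparisons with ctrl. Dogs 1 to 3 had their arrays before and after ASIT on a shared slide. Of all probes, 83.6% to 92.2% had Cy5 well above background on the ctrl arrays, 53.3% to 87.5% on the arrays before ASIT and 57.1% to 81.6% on those after ASIT. Some pairs of arrays ran against each other over all probes, down to r = -0.22. In bulk blood, fewer cells of a type and less RNA per cell cannot be told apart.

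The 2 ALAS2 probes lie at different places of the genome and gave different values. The cause was not tested. Both are printed with the probes of the other genes whose sequence holds an open reading frame on the printed strand. Capitals mark the hexamer GTGAGT in the dimmer ALAS2 probe and a stop codon in frame at the end of the AHSP probe, and a frame without a stop codon runs through each of the others. Positions were taken from the scanner files (canFam3.1). Their place in exons was not analysed here.
ALAS2, brighter probe: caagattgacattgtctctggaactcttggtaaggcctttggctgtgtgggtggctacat
ALAS2, dimmer probe: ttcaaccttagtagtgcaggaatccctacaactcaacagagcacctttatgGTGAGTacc
AHSP: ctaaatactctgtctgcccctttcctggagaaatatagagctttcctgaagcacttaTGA
SLC4A1: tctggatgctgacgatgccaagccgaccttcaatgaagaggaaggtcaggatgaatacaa
EPB42: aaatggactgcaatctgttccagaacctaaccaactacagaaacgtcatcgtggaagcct
KLF1: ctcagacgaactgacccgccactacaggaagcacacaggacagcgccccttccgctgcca

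The brighter ALAS2 probe lies on the minus strand at chrX:46709403-46710008, where its 60 bases were spread over 606 positions. The dimmer ALAS2 probe lies on the minus strand at chrX:46702680-46702739, without a gap. The letters GTGAGT are a common start of an intron. They stand at base 52 of this probe, in 0.938% of all 43603 probes on the printed strand and in 1.98% on either strand, and such a match is a description. The AHSP probe lies at chr6:16745044-16745103 and the EPB42 probe at chr30:10065532-10065591, both on the minus strand. The SLC4A1 probe lies at chr9:19156798-19157802 on the plus strand, with its 60 bases spread over 1005 positions. The KLF1 probe lies at chr20:49298055-49298114 on the plus strand. Both FECH probes, at chr1:18383978-18384037 and chr1:18384157-18384216, and the ANK1 probe, at chr16:23964993-23965052, hold a stop codon in every frame of the plus strand that they read.

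Of the 9 probes, 7 had Cy5 well above background on all 22 arrays, and none was saturated on any array. The exceptions were the dimmer ALAS2 probe and the ANK1 probe. The dimmer ALAS2 probe passed this in 7 of 8 ctrl dogs, in 1 of 7 patients before ASIT and in 2 of 7 after it. The ANK1 probe passed it in 8 of 8, 1 of 7 and 2 of 7 dogs. The values of these 2 probes in the cAD groups thus come mostly from spots near background.

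The haem enzymes were spread widely among the dogs of every group. ALAS2, by its brighter probe, ranged from -2.07 to 1.76 in ctrl (median -0.35, n = 8 arrays), from -1.54 to 1.73 before ASIT (median 0.70, n = 7) and from -0.69 to 1.49 after ASIT (median 1.06, n = 7). All 7 values before ASIT and all 7 values after ASIT lay within the ctrl range, whose top was set by ctrl dog 1 alone. Without that array the highest ctrl value was 0.64, and 4 of 7 values before ASIT and 5 of 7 after ASIT lay above it. The highest and lowest ctrl dogs, dogs 1 and 2, were 14.2-fold apart. The group means were -0.16 ± 1.16 (SD) in ctrl, 0.53 ± 1.09 before ASIT and 0.82 ± 0.76 after ASIT. The difference was 0.69 ± 0.49 (SE) in 0 vs. ctrl and 0.98 ± 0.49 in 6 months vs. ctrl, with atopic dogs higher. With Cy5 read alone these were 1.22 and 1.39, while the medians of all tested probes on that scale were -0.44 and -0.37. For this probe Cy3, scaled in the same way, also tended to be higher on the cAD arrays. It ran from 6.81 to 7.74 (log2) in ctrl, from 7.35 to 8.23 before ASIT and from 7.50 to 8.06 after ASIT. The part of this shift in the Cy5 differences was not tested.

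The dimmer ALAS2 probe ranged from -1.05 to 0.57 in ctrl, from -1.13 to 0.73 before ASIT and from -0.12 to 1.90 after ASIT. Its differences were 0.24 ± 0.34 (SE) in 0 vs. ctrl and 0.92 ± 0.34 in 6 months vs. ctrl, whereas with Cy5 read alone they were -1.29 and -0.80, below the medians of all tested probes on that scale, -0.44 and -0.37. With normexp background correction and loess normalization in place of the deposited ratios, they were 0.03 and 0.06. The 3 highest values after ASIT, those of dogs 5 to 7, all came from spots of slide 6 that were not well above background.

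FECH, by its brighter probe, ranged from -2.03 to 1.67 in ctrl (median -0.48), from -1.06 to 1.94 before ASIT (median 0.96) and from -0.75 to 1.81 after ASIT (median 0.94). Only 1 dog before ASIT and 1 dog after ASIT lay above the ctrl range, and none below it. Without ctrl dog 1 the highest ctrl value was 0.26, and 5 of 7 dogs before ASIT and 6 of 7 after ASIT lay above it. FECH had the largest differences of the 9 probes, 1.01 ± 0.47 (SE) in 0 vs. ctrl and 1.13 ± 0.47 in 6 months vs. ctrl. The dimmer FECH probe, which lies beside it, gave 0.89 ± 0.40 and 0.94 ± 0.40. The 2 FECH probes ran together over the arrays of each group, with r = 0.95 to 0.98, and were never more than 0.53 apart on an array.

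AHSP binds free alpha globin and keeps it soluble until it meets beta globin. It ranged from -2.51 to 0.82 in ctrl (median -0.90), from -2.39 to 0.56 before ASIT (median 0.08) and from -1.31 to 1.30 after ASIT (median 0.24). All 7 values before ASIT and 6 of 7 after ASIT lay within the ctrl range, with 1 above it. Without ctrl dog 1, 2 values at each time lay above it, and without ctrl dog 2, 1 before ASIT lay below it. The difference was 0.49 ± 0.51 (SE) in 0 vs. ctrl and 0.93 ± 0.51 in 6 months vs. ctrl.

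SLC4A1, EPB42 and ANK1 belong to the red cell membrane. SLC4A1, the anion exchanger band 3, ranged from -0.55 to 0.76 in ctrl (median 0.09), from -0.96 to 1.17 before ASIT (median 0.67) and from -0.69 to 1.58 after ASIT (median 1.09). It had the narrowest ctrl range of the 7 probes bright on all arrays, and 3 dogs before ASIT and 4 dogs after ASIT lay above that range, with 1 below it at each time, or 2 before ASIT without ctrl dog 2. The differences were 0.23 ± 0.36 (SE) in 0 vs. ctrl, which was -0.12 with Cy5 read alone and so above the median of all probes on that scale, and 0.54 ± 0.36 in 6 months vs. ctrl. With normexp and loess they were 0.06 and 0.10. EPB42, or protein 4.2, links band 3 to the skeleton and ranged from -1.33 to 1.31 in ctrl, from -1.34 to 1.41 before ASIT and from -1.06 to 1.77 after ASIT. Its differences, 0.27 ± 0.45 (SE) and 0.49 ± 0.45, were below 1 SD of the ctrl dogs, 0.89. With normexp and loess the second was 0.27, and with Cy5 read alone the first was 0.44.

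ANK1 encodes ankyrin, which ties band 3 to spectrin. Its log2 ratio lay between -0.48 and -0.02 in ctrl, between -0.90 and 0.02 before ASIT and between -0.73 and 0.96 after ASIT. After ASIT 6 values lay above the narrow ctrl range and 1 below it, 5 of these 7 values coming from spots not well above background. The difference was -0.18 ± 0.19 (SE) in 0 vs. ctrl, the only negative one among the 9 probes, and 0.39 ± 0.19 in 6 months vs. ctrl. With normexp and loess these were 0.02 and 0.06, and with Cy5 read alone -2.24 and -1.54.

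KLF1, a transcription factor of red cell precursors, ranged from -0.74 to 1.48 in ctrl (median 0.17), from -1.51 to 1.61 before ASIT (median 1.09) and from -0.84 to 1.67 after ASIT (median 1.04). Of the 7 values at each time, 4 before ASIT and 5 after ASIT lay within the ctrl range. Without ctrl dog 1, whose value was the highest, 2 at each time lay within it and 4 at each time above it. The difference was 0.33 ± 0.45 (SE) in 0 vs. ctrl and 0.51 ± 0.45 in 6 months vs. ctrl, the latter 0.26 with normexp and loess.

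**Figure D1:**
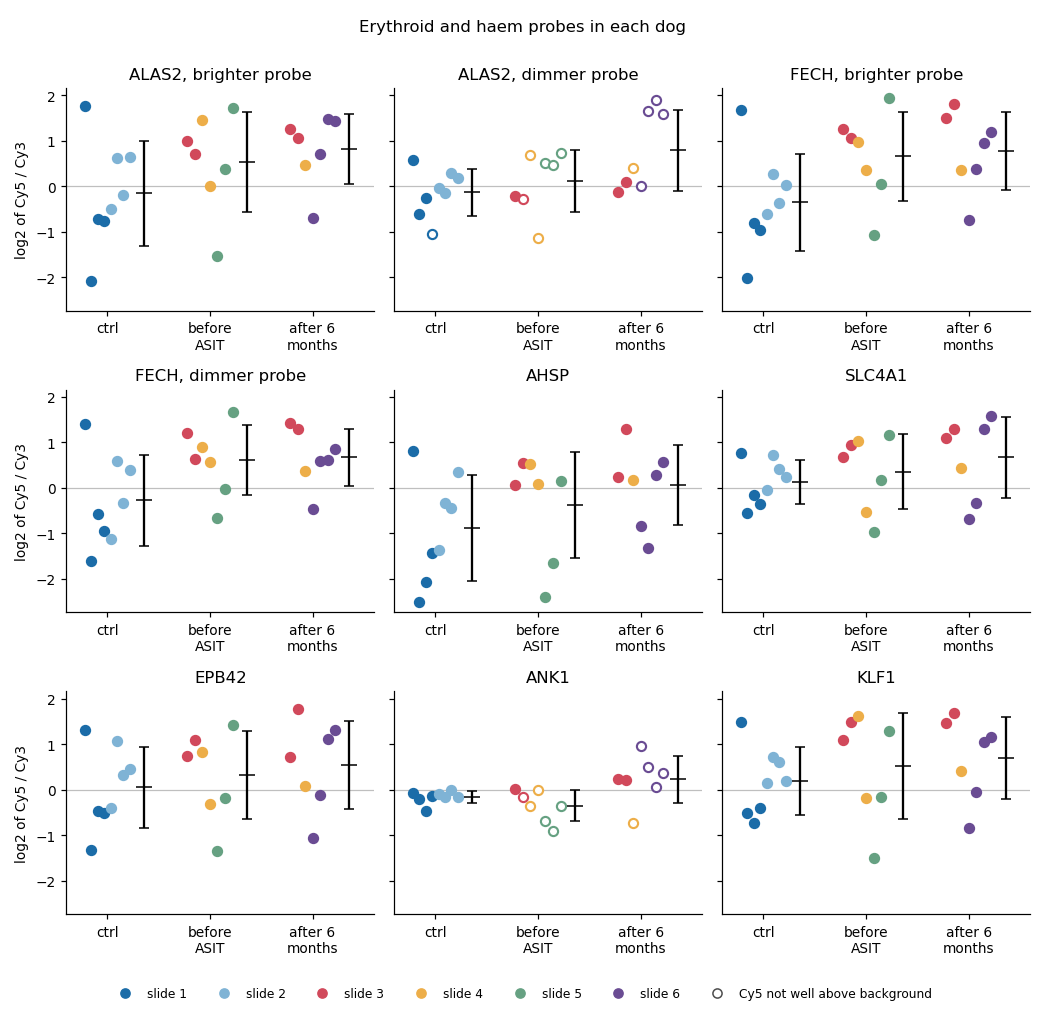
Log2 ratio of Cy5 to Cy3 (y axis) of the 9 probes in the 3 groups (x axis), 1 point per array in dog order, coloured by slide, with the mean and SD as bars and open points where Cy5 was not well above background. The groups overlap in every panel with filled points, for ALAS2 with all 7 values before and all 7 after ASIT inside the ctrl range, whose top is ctrl dog 1 (without it 4 and 5 values lie above the range), while the dimmer ALAS2 probe and ANK1 are mostly open points in the cAD groups.

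Over all 9 probes, the median difference was 0.33 in 0 vs. ctrl and 0.92 in 6 months vs. ctrl, beside -0.02 and -0.04 over all 38286 probes tested. A difference of at least 0.5 was reached by 3 of 9 probes in 0 vs. ctrl, where 6.07% of all tested probes reached it, and by 7 of 9 in 6 months vs. ctrl, where 7.51% did. After ASIT minus before ASIT, the median was 0.29, and 2 of 9 probes, the dimmer ALAS2 probe and ANK1, reached 0.5, beside 6.06% of all tested probes. Since these comparisons chose the genes, nothing is read from these shares. Among the 7 probes bright on all arrays, 0 reached 0.5 after ASIT minus before ASIT, beside 0.547% of all 20835 such probes tested. With the slide as a fixed block, the median after minus before ASIT was 0.12, the dimmer ALAS2 probe was at 0.38 and ANK1 at -0.05, so that neither reached 0.5, and with normexp and loess the median was 0.04. Over all tested probes, limma at an adjusted p under 0.05 called 16 in 0 vs. ctrl, or 0.0418%. For 6 months vs. ctrl limma called 0 probes of any kind, while 2756 had an unadjusted p under 0.05. For 0 vs. 6 months it called 0 as well, while 2282 had such a p.

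The size of the differences was not the same with another background correction and normalization, which were changed as a pair. With normexp background correction and loess, the median over the 9 probes was 0.26 in 0 vs. ctrl and 0.27 in 6 months vs. ctrl. For the brightest probe of the 6 genes that were bright on all arrays (ALAS2, FECH, AHSP, SLC4A1, EPB42 and KLF1), the medians were 0.41 and 0.74 from the deposited ratios, and 0.40 and 0.50 with normexp and loess. Among these 6, the log2 differences of SLC4A1, EPB42 and KLF1 in 6 months vs. ctrl were smaller by more than 1.5 times, as given with each gene.

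Single arrays moved the differences from ctrl as well. In 0 vs. ctrl, leaving out 1 array gave 0.41 to 1.03 for ALAS2 and 0.26 to 0.83 for AHSP, and 0.07 to 0.54 for EPB42, with the lowest value without ctrl dog 2 and the highest without dog 5 before ASIT. It gave 0.15 to 0.67 for KLF1, the lowest without dog 3, and 0.09 to 0.45 for SLC4A1, the lowest without dog 7, the highest again without dog 5 before ASIT. The dimmer ALAS2 probe was at 0.11 without ctrl dog 4 and at 0.45 without dog 4 before ASIT, and ANK1 at -0.09 without dog 6 before ASIT. In 6 months vs. ctrl, EPB42 was at 0.29 without ctrl dog 2 or without dog 2 after ASIT, and without dog 4 after ASIT EPB42 and KLF1 were both at 0.76.

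Slide by slide, these 6 bright genes were summarised as the mean of their log2 ratios on each array. The mean was -0.44 on slide 1 and 0.10 on slide 2, each with 4 ctrl dogs. On slide 3 it was 0.89 for dogs 1 and 2 before ASIT and 1.26 for the same dogs after ASIT. On slide 4 it was 0.49 for dogs 3 and 4 before ASIT and 0.32 for dog 3 after ASIT. Slide 5, with dogs 5 to 7 before ASIT, had a mean of -0.14, and slide 6, with dogs 4 to 7 after ASIT, a mean of 0.32. The highest means were those of slide 3. On slide 1 the 4 ctrl dogs ranged from -1.50 to 1.30, and on slide 5 the 3 patients ranged from -1.47 to 1.28, which is wider than the range of the slide means.

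Within dogs, the change from before to after ASIT had no common direction. Dogs 5 and 6 had all 6 genes higher after ASIT, by 1.35 and 1.26 on average, and dog 2 had all 6 higher by 0.51. Dog 1 had 5 of 6 genes higher, with a mean change of 0.24. Dogs 3 and 4 had all 6 genes lower after ASIT, with mean changes of -0.75 and -0.71. Dog 7 had 2 of 6 genes higher, with a mean change of -0.08. Dogs 5 and 6 had their arrays on different slides before and after ASIT, as did dogs 4 and 7.

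**Figure D2:**
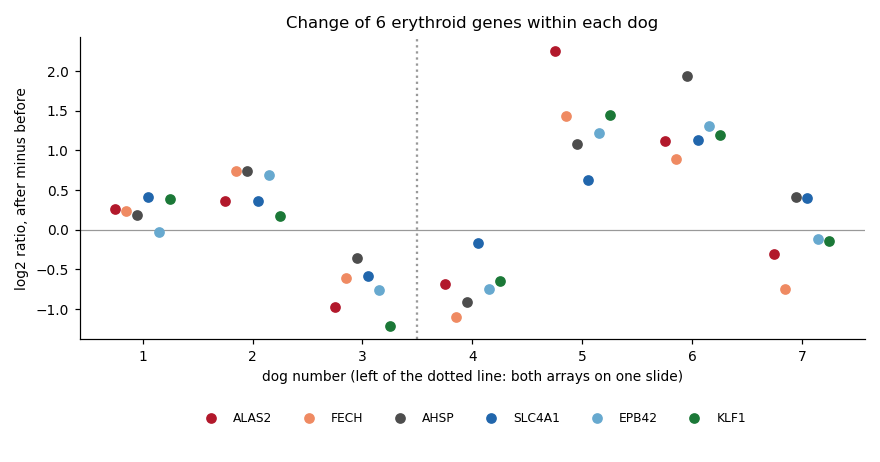
Change of the log2 ratio, after minus before ASIT (y axis), of the 6 bright genes in each of 7 dogs (x axis), 1 point per gene, with dogs whose arrays shared a slide left of the dotted line. The genes of a dog keep together, all 6 above 0 in dogs 2, 5 and 6 and all 6 below 0 in dogs 3 and 4.

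By gene, 5 of 7 dogs were higher after ASIT for AHSP and SLC4A1, 4 for ALAS2, FECH and KLF1, and 3 for EPB42. ALAS2 changed by 0.29 ± 1.12 (SD, n = 7 dogs) and SLC4A1 by 0.31 ± 0.55. Dog 5 before ASIT had the lowest value of its group for each of the 6 genes. Without this array, the difference of group means after minus before ASIT went from 0.29 to -0.06 for ALAS2, from 0.17 to -0.17 for KLF1, from 0.22 to -0.05 for EPB42, from 0.12 to -0.17 for FECH, from 0.44 to 0.11 for AHSP and from 0.31 to 0.09 for SLC4A1. For FECH, leaving out dog 2 after ASIT also gave a negative difference, -0.05. For the dimmer FECH probe, with a difference of 0.06, leaving out dog 5 or 6 before ASIT, or dog 1 or 2 after ASIT, gave -0.15, -0.05, -0.07 and -0.05. In dogs 1 to 3 alone, with the dog as a block, the median over the 6 genes was 0.02.

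The spread among dogs of the same group was wide for the bright erythroid genes. The within-group SD of the log2 ratio was 1.08 for AHSP, 1.03 for ALAS2, 0.98 for FECH, 0.94 for EPB42, 0.94 for KLF1 and 0.74 for SLC4A1. The median over the 20835 tested probes that were bright on all arrays was 0.37. The SD of AHSP exceeded that of 99.5% of these probes, the SD of ALAS2 that of 99.2% and the SD of SLC4A1, the least variable of the 6, that of 94.2%. It was wide in the channel with the RNA of the dogs. With each channel scaled on its own to the 75th percentile of its array, the within-group SD of the 6 genes was 0.84 to 1.06 in Cy5 and 0.12 to 0.27 in Cy3, which held the same reference RNA on every array. For the dimmer ALAS2 probe and ANK1, the SD was nearly equal in both channels, 1.09 and 1.00 in Cy5 beside 1.12 and 0.94 in Cy3.

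**Figure D3:**
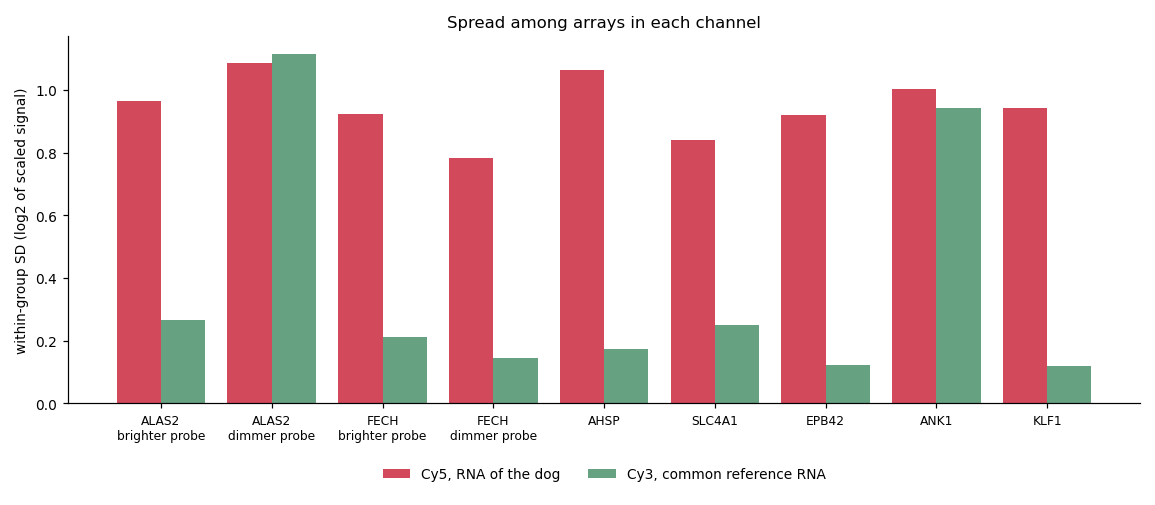
Within-group SD (y axis, log2 of the signal scaled to the 75th percentile of its array) of each probe (x axis) in Cy5, the RNA of the dog, and in Cy3, the common reference. The bars of Cy5 reach 0.78 to 1.06 and those of Cy3 0.12 to 0.27 for the 7 probes bright on all arrays, whereas both bars lie between 0.94 and 1.12 for the dimmer ALAS2 probe and ANK1.

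The genes varied together among dogs of the same group, a relation that does not use the difference between groups. On the array of ctrl dog 1 all 6 bright genes were above 0, from 0.76 to 1.76, and on that of ctrl dog 2 all 6 were below 0, from -2.51 to -0.51. Dog 7 before ASIT had values of 0.15 to 1.94, and dog 5 before ASIT values of -2.39 to -0.96. After ASIT, dog 2 had values of 1.06 to 1.81, and dog 4 values of -1.06 to -0.69. Among the 15 pairs of the 6 genes, the median r was 0.91 in ctrl (n = 8), 0.93 before ASIT (n = 7) and 0.87 after ASIT (n = 7). The lowest r of a pair was 0.86 in ctrl, for ALAS2 and KLF1, 0.73 before ASIT, for SLC4A1 and AHSP, and 0.58 after ASIT, for ALAS2 and AHSP.

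**Figure D4:**
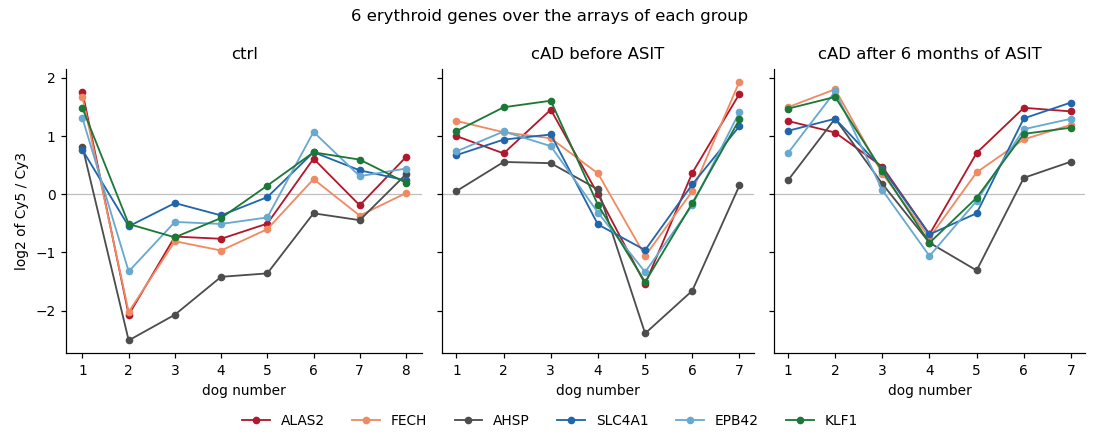
Log2 ratio of Cy5 to Cy3 (y axis) of the 6 bright genes on each array, by dog number (x axis) and group, with lines that join the values of 1 gene and imply no order of the dogs. The 6 genes keep together from dog to dog, with ctrl dog 1 between 0.76 and 1.76 and ctrl dog 2 between -2.51 and -0.51.

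The relation with ALAS2 was tested within each group, for the 6 other genes and for 5 lists of blood cell markers, 33 relations in all, with 2-sided exact permutation tests and Benjamini-Hochberg adjustment over the 33. Of the 18 relations with an erythroid gene, 13 passed an adjusted p of 0.05 for Pearson's r and 8 for Spearman's rho. The same 13 had r of at least 0.8. A probe of any kind reached this r with ALAS2 in 5.6% of cases in ctrl, in 7.3% before ASIT and in 8.53% after ASIT, so that many other transcripts followed ALAS2 as well.

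FECH followed ALAS2 most closely in ctrl, with r = 0.99 (exact permutation p = 7.44e-05, adjusted 0.00109) and rho = 0.98 (exact permutation p = 0.000397, adjusted 0.00437). Before ASIT, r was 0.94 (exact permutation p = 0.00278, adjusted 0.0131) and rho 0.86 (exact permutation p = 0.0238, adjusted 0.0655). After ASIT, r was 0.87 (exact permutation p = 0.0145, adjusted 0.0299) and rho 0.64 (exact permutation p = 0.139, adjusted 0.255). Without the 2 arrays farthest from the median of ALAS2, r was 0.98 in ctrl, 0.72 before ASIT and 0.38 after ASIT, so the relation after ASIT rested on those arrays.

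SLC4A1 had r = 0.91 in ctrl (exact permutation p = 0.00141, adjusted 0.00933), 0.94 before ASIT (exact permutation p = 0.000794, adjusted 0.00655) and 0.88 after ASIT (exact permutation p = 0.00655, adjusted 0.0211). Its rho was 0.93, 0.96 and 0.89, with exact permutation p = 0.00223, 0.00278 and 0.0123 (adjusted 0.0183, 0.0183 and 0.0451). SLC4A1 was the gene with both measures past the threshold in all 3 groups. Without the 2 farthest arrays its r was 0.83, 0.89 and 0.87. With Cy5 read alone its r after ASIT was 0.75 and did not pass.

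EPB42 had r = 0.96, 0.94 and 0.87 in ctrl, before ASIT and after ASIT, with exact permutation p = 9.92e-05, 0.00238 and 0.00933 (adjusted 0.00109, 0.0131 and 0.0237). Its rho was 0.98, 0.89 and 0.71, with exact permutation p = 0.000397, 0.0123 and 0.0881 (adjusted 0.00437, 0.0451 and 0.194). Without the 2 farthest arrays, r was 0.92, 0.79 and 0.59. KLF1 had r = 0.86, 0.93 and 0.87, with exact permutation p = 0.00828, 0.00417 and 0.0127 (adjusted 0.0228, 0.0172 and 0.0279). Its rho was 0.86, 0.82 and 0.61, with exact permutation p = 0.0107, 0.0341 and 0.167 (adjusted 0.0451, 0.0804 and 0.275), and r without the 2 farthest arrays was 0.72, 0.86 and 0.59. With Cy5 read alone the r of KLF1 after ASIT was 0.78 and did not pass.

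AHSP had r = 0.95 in ctrl (exact permutation p = 9.92e-05, adjusted 0.00109), 0.79 before ASIT (exact permutation p = 0.0339, adjusted 0.0622) and 0.58 after ASIT (exact permutation p = 0.18, adjusted 0.258). Its rho was 0.98, 0.61 and 0.64, with exact permutation p = 0.000397, 0.167 and 0.139 (adjusted 0.00437, 0.275 and 0.255), and r without the 2 farthest arrays was 0.90, 0.45 and 0.58. Whether r differed between the groups was not tested. ANK1 had r = 0.35, 0.35 and -0.36, with exact permutation p of 0.391, 0.454 and 0.358 (adjusted 0.477, 0.535 and 0.477). Its rho was 0.45, 0.18 and -0.32, with exact permutation p of 0.267, 0.713 and 0.498 (adjusted 0.353, 0.759 and 0.590), and r without the 2 farthest arrays was 0.28, 0.06 and -0.71. Its r before ASIT was 0.82 with normexp and loess and did not pass, and after ASIT it was 0.17 with Cy5 read alone, with the sign turned. The dimmer ALAS2 probe, set against the brighter probe of the same gene, had r = 0.73 in ctrl, where 7 of 8 of its spots were well above background, and 0.18 and 0.47 before and after ASIT, where 1 and 2 of 7 were.

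**Figure D5:**
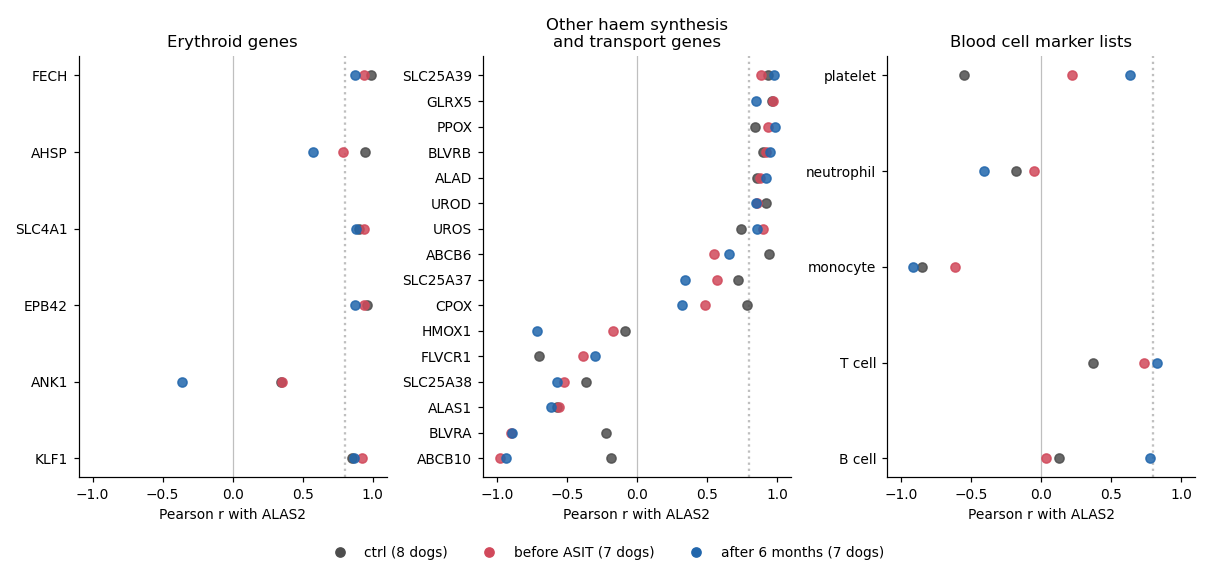
Pearson r with ALAS2 (x axis, dotted line at 0.8) of the other erythroid genes, of other haem synthesis and transport genes and of 5 blood cell marker lists (y axis), 1 point per group of 8, 7 and 7 dogs. FECH, SLC4A1, EPB42 and KLF1 have all points above 0.8, as have SLC25A39, GLRX5, PPOX, BLVRB, ALAD and UROD. The points of HMOX1, FLVCR1, SLC25A38, ALAS1, BLVRA and ABCB10 lie below 0 in all groups.

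The other genes of the pathway came from 6 lists of 100 names, some of them older names of the same gene, of which 76 were on the array, with 133 probes tested. No globin of the list was found by its name. In limma, 0 of the 133 probes were called in any comparison at an adjusted p under 0.05. At an unadjusted p under 0.05 there were 6 higher and 3 lower in 0 vs. ctrl, or 6.77% of the 133, beside 11.7% of all tested probes. In 6 months vs. ctrl there were 8 higher and 0 lower, or 6.02%, beside 7.2%. In 0 vs. 6 months, with before minus after ASIT as the difference, there were 1 higher and 2 lower, or 2.26%, beside 5.96%. In both directions together, the shares were thus below those of all tested probes. Over all tested probes, 3.81% were higher and 7.93% lower in 0 vs. ctrl, 4.09% higher and 3.11% lower in 6 months vs. ctrl, and 2.15% higher and 3.81% lower in 0 vs. 6 months. The median difference over the 133 probes was 0.10 in 0 vs. ctrl and 0.23 in 6 months vs. ctrl.

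In haem synthesis and transport, 0 of 27 probes were called in limma and the median difference was 0.02 in 0 vs. ctrl and 0.11 in 6 months vs. ctrl. The highest genes in 6 months vs. ctrl were SLC25A39, a mitochondrial carrier, with 0.92 ± 0.60 (SE, limma adjusted p = 0.709), and UROD, an enzyme of the middle of the pathway, with 0.83 ± 0.44 (adjusted p = 0.681). The lowest were FLVCR1, a haem exporter, with -0.11 ± 0.18, and SLC25A38, the mitochondrial glycine carrier, with -0.08 ± 0.12. Enzymes that act between ALAS2 and FECH followed ALAS2 among dogs to different degrees. Their r was 0.86, 0.88 and 0.92 in ctrl, before and after ASIT for ALAD, 0.75, 0.90 and 0.86 for UROS, 0.92, 0.86 and 0.85 for UROD, 0.79, 0.48 and 0.32 for CPOX, and 0.84, 0.94 and 0.98 for PPOX. ALAS1, the form of the first enzyme found in all tissues, ran the other way, with r = -0.57, -0.56 and -0.61. The difference of ALAS1 itself was 0.04 in both comparisons with ctrl.

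In all, 7 of 18 haem synthesis and transport genes had r of at least 0.8 with ALAS2 in all 3 groups, as had 2 of 15 genes of the membrane and skeleton, 4 of 12 of transcription and growth signals, 4 of 19 red cell enzymes and maturation genes and 1 of 12 iron genes. Together this was 18 of 76 pathway genes, or 23.7%, and 4 of the 6 erythroid genes set against ALAS2 (FECH, SLC4A1, EPB42 and KLF1). Of all tested probes, 2.37% did so, of those bright on all arrays 4.27%, and of the brightest probes of all 29932 gene names tested, 2.66%. The mean r over the 3 groups was below 0 for 7 of 18 haem synthesis and transport genes and for 20 of 76 pathway genes. It was below 0 for 14736 of the 29932 gene names. These correlations are a description, since the probes share the same arrays.

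Among the membrane genes, TMOD1, which caps actin filaments, had a difference of 0.97 ± 0.49 (SE, limma adjusted p = 0.681) in 6 months vs. ctrl. RHAG, the Rh-associated glycoprotein, gave -0.10 ± 0.16, and SLC14A1, the urea transporter, -0.06 ± 0.29. RHAG differed from the erythroid genes in its course among dogs too, with r = -0.96, -0.53 and -0.80 against ALAS2 in ctrl, before and after ASIT, while TMOD1 had 0.94, 0.92 and 0.92. Among the transcription and growth signal genes, HEMGN, a nuclear protein of blood-forming cells, gave 0.99 ± 0.50 (SE, limma adjusted p = 0.681) and SOX6, a factor of red cell development, 0.72 ± 0.36 (adjusted p = 0.681). EPOR, the erythropoietin receptor, gave -0.17 ± 0.24, and LDB1, a partner of erythroid factors, -0.15 ± 0.13.

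Among red cell enzymes and maturation genes, SELENBP1 had 1.04 ± 0.55 (SE, limma adjusted p = 0.681) in 6 months vs. ctrl and UBE2O, a ubiquitin ligase of reticulocytes, 0.90 ± 0.44 (adjusted p = 0.681). PNP, a purine enzyme, had -0.19 ± 0.15, and BNIP3L, which acts in the removal of mitochondria from reticulocytes, -0.14 ± 0.15. Among the iron genes, STEAP3, an iron reductase, had 0.54 ± 0.30 (SE, limma adjusted p = 0.681) and HFE 0.39 ± 0.22 (adjusted p = 0.686). TFRC, the transferrin receptor through which red cell precursors take up iron, had -0.11 ± 0.19, and IREB2, a regulator of iron-related mRNAs, 0.04 ± 0.15. STEAP3 was the iron gene with r of at least 0.8 in all groups, at 0.90, 0.80 and 0.93, whereas TFRC had 0.44, 0.11 and 0.45.

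The genes most like the erythroid set were sought by the mean of the 3 within-group r with the mean standardised pattern of the 6 bright genes. Among the first 5 named genes were MCM3AP (mean r = 0.98), GLRX5 (0.98), PITHD1 (0.98) and MARCH8 (0.97). GLRX5 acts in iron-sulphur cluster assembly. In 6 months vs. ctrl their differences were 0.99 for MCM3AP, 0.80 for GLRX5, 0.82 for PITHD1 and 0.90 for MARCH8.

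LOC609402, which the files describe as a beta-like haemoglobin subunit, was chosen after its values were seen. It has 2 probes, with r = 0.88 to 0.97 with ALAS2 over the 3 groups. The within-group SD of its probes was 0.60 and 0.62 in Cy5 and 0.47 and 0.45 in Cy3, so that the reference channel varied more than for the 6 bright genes. Its difference in 0 vs. ctrl was 0.22 ± 0.43 (SE) and 0.23 ± 0.45 by its probes, with limma adjusted p = 0.886 and 0.89. In 6 months vs. ctrl it was 0.80 ± 0.43 (SE, limma adjusted p = 0.681) by one probe and 0.70 ± 0.45 (adjusted p = 0.704) by the other. By likeness to the 6 bright genes it came 74th of 15713 gene names.

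Markers of other blood cells were read as the mean log2 ratio of each list. Single probes of any kind spread widely in their r with ALAS2. Without a small, equal share at each end, their r ran from -0.81 to 0.86 in ctrl. It ran from -0.83 to 0.88 before ASIT and from -0.89 to 0.91 after ASIT. Of the list relations that passed for r, those of monocytes lay just outside these ranges and those of T and B cells inside. The spread of r over other lists was not tested. The monocyte list, 7 of 7 genes tested, ran against ALAS2 with r = -0.85 in ctrl (exact permutation p = 0.00704, adjusted 0.0211), -0.62 before ASIT (exact permutation p = 0.137, adjusted 0.226) and -0.92 after ASIT (exact permutation p = 0.0107, adjusted 0.0253). Its rho was -0.91, -0.50 and -0.82, with exact permutation p = 0.00456, 0.267 and 0.0341 (adjusted 0.0251, 0.353 and 0.0804). Without the 2 arrays farthest from the median of ALAS2, r was -0.63, -0.07 and -0.48, so the relations with the monocyte list rested in part on those arrays. With normexp and loess its r after ASIT was -0.64 and did not pass. The summed scaled Cy5 signal of the monocyte list lay between 150 and 260 times the 75th percentile in ctrl, 190 and 361 before ASIT and 153 and 356 after ASIT.

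The T cell list, 8 of 10 genes tested, had r = 0.37, 0.73 and 0.83 with ALAS2 in ctrl, before and after ASIT, with exact permutation p = 0.366, 0.0542 and 0.00575 (adjusted 0.477, 0.0941 and 0.0211). Its rho was 0.45, 0.64 and 0.86, with exact permutation p = 0.267, 0.139 and 0.0238 (adjusted 0.353, 0.255 and 0.0655), and without the 2 farthest arrays r was 0.68, 0.46 and 0.89. Its r after ASIT was 0.67 with normexp and loess and 0.70 with Cy5 read alone, and passed with neither. Its summed signal lay between 37.2 and 73.9 in ctrl, 37.9 and 83.5 before ASIT and 38.5 and 68.8 after ASIT. The B cell list, 7 of 7 genes, passed in the group after ASIT with r = 0.78 (exact permutation p = 0.0236, adjusted 0.0458). It did not pass there with rho = 0.86 (exact permutation p = 0.0238, adjusted 0.0655). Its r was 0.34 there without the 2 farthest arrays. It was 0.52 with normexp and loess and 0.71 with Cy5 read alone, and passed with neither. In ctrl and before ASIT its r was 0.13 and 0.04, with exact permutation p = 0.784 and 0.943, and its summed signal ranged from 6.36 to 15.3, 6.6 to 17.3 and 3.19 to 14.8 in the 3 groups.

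The platelet list, 8 of 12 genes, had r = -0.55, 0.22 and 0.64 in ctrl, before and after ASIT, and the neutrophil list, 7 of 10 genes, -0.18, -0.05 and -0.41, with adjusted exact permutation p of 0.229 or more. Without the 2 farthest arrays, r of the platelet list was -0.48, 0.90 and -0.66 and that of the neutrophil list -0.15, 0.32 and -0.40, so the sign turned for platelets after ASIT and for neutrophils before ASIT. Their summed signals ranged from 68.7 to 240, 91.4 to 201 and 98.6 to 296 for platelets, and from 625 to 1060, 680 to 1690 and 839 to 1200 for neutrophils. No tested marker of the 5 lists was below background on every array of a group. The means of the lists differed by less than their SD between ctrl and either cAD group, for example -0.08 ± 0.30 (SD, n = 8) in ctrl, -0.25 ± 0.52 (n = 7) and -0.09 ± 0.50 (n = 7) for monocytes. The mean of the 6 erythroid genes was -0.17 ± 0.89, 0.33 ± 0.99 and 0.59 ± 0.83, and also differed by less than its SD. Their part in the values of the erythroid genes was not tested.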

How the data were processed

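The authors hybridized Cy5-labeled RNA of each dog and the Cy3-labeled common reference to Agilent canine arrays. Their Feature Extraction software subtracted the background and applied Lowess normalization, and wrote the deposited processed intensities and the deposited log10 ratio of both dyes. The submitters' processing notes name version 10.7.3.1 and the file headers version 10.10.1.1. The authors also deposited a series matrix of log10 ratios, whose ctrl values differ from the scanner files for a reason not given in the sources used here.

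The log10 ratios were turned into log2, without 208 spots flagged as outliers, and repeated spots of a probe were averaged. Of 43603 probes, the 38286 whose Cy5 signal passed the background flag on 7 or more arrays entered 1 fit of the 3 groups with limma 3.58.1 in R 4.3.3, with Benjamini-Hochberg adjustment. The number of arrays limits the precision. Correlations used exact permutations (40320 orders of 8 arrays, 5040 of 7) in Python 3.11.15 with scipy 1.17.1. Of the 8 other genes planned for them, 6 had a probe, and the probe with the highest mean Cy5 signal stood for a gene. In simulated data, limma recovered 192 of 200 probes changed by 2 on the log2 scale in 6 months vs. ctrl among 38286, with 10 false calls. The largest difference of the erythroid genes was 1.13, for FECH in 6 months vs. ctrl. Changes of that size were not simulated, so the recovery of the erythroid differences was not tested.

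The genes and lists were chosen with earlier results of these data known. Named besides them were, per pathway list, the 2 genes with the highest and the 2 with the lowest difference in 6 months vs. ctrl among those bright on all arrays, and the 5 genes most like the erythroid set. Some of the genes so named are not reported here.

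The alternatives were normexp with an offset of 50 and loess, the ratio of processed signals, the series matrix, Cy5 alone, no filter, a strict filter of 19946 probes, slide or scan day as a block, the one-way test of the methods, followed by Tukey's test, each array left out, and, for 0 vs. 6 months, the dog as a block. Pairs of arrays of a dog come from the source names in the labels. The titles of the arrays after ASIT all name the same patient, with a running number. The deviations of paired arrays from the group means correlated by r = -0.04 to 0.56, a description over all probes. For dogs 3, 5 and 6 the array of another dog after ASIT correlated more. The r was highest for dogs 1 and 2, whose arrays shared a slide.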

Additional observations from a re-analysis of the deposited data

Results flagged for a closer look

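Of 36 sets of values, the 3 groups and the change within dogs for each of the 9 probes, 1 had an array that stood far from the others by Dixon's test, where chance gives about 1 in 20. It was ANK1 in ctrl, where dog 3 had a log2 ratio of -0.48 and its gap to the next value was 0.6 of the whole range.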

How the results depend on the processing

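From the deposited ratios and under the alternatives that use all arrays and test all 9 probes, their median difference was 0.26 to 0.44 in 0 vs. ctrl, 0.27 to 0.92 in 6 months vs. ctrl and, as before minus after ASIT, -0.29 to -0.04 in 0 vs. 6 months. The strict filter kept 7 of the 9, with medians of 0.49, 0.93 and -0.22. The lowest sizes came with normexp and loess. The one-way test gives no median. Without 1 array the medians were from 0.18 to 0.67 in 0 vs. ctrl, from 0.70 to 1.05 in 6 months vs. ctrl and from -0.49 to 0.05 in 0 vs. 6 months, where the sign turned without dog 5 before ASIT. Leaving out that array also gave the 0.67, and leaving out dog 3 before ASIT the 0.18. The 16 probes called in 0 vs. ctrl became 0 with normexp and loess, 9 with the series matrix, 17286 with Cy5 alone, 0 with the strict filter, 0 with slide or scan day as a random block and 0 with the one-way test of the methods, and 0 to 440 without 1 array, the most without dog 1 before ASIT. In 6 months vs. ctrl, Cy5 alone called 15712, and leaving out 1 array 0 to 2. In 0 vs. 6 months, 1 probe was called without the filter on dim probes and 0 to 103 without 1 array, again the most without dog 1 before ASIT. Of the 133 pathway probes, 35 were called with Cy5 alone in 0 vs. ctrl, 7 of them higher, beside 17286 of all 38286 tested probes, 782 of them higher. In 6 months vs. ctrl 38 were called, 18 of them higher, beside 15712 of all tested probes, 1081 of them higher. Both shares of the pathway probes were below those of all tested probes. Without 1 array, 0 to 1 pathway probes were called in 0 vs. ctrl, 0 to 0 in 6 months vs. ctrl and 0 to 2 in 0 vs. 6 months. The exceptions to 0 came without dog 1 before ASIT. The cause was not tested. With the dog as a replicate block, 0 probes were called in 0 vs. 6 months and the median of the 9 probes was -0.29, and the block changed no call. Of the 18 relations with ALAS2, 13 had r of at least 0.8, 7 without the 2 arrays farthest from its median, 15 with normexp and loess and 12 with Cy5 alone. With normexp and loess, the lists of monocytes, T cells and B cells had r = -0.64, 0.67 and 0.52 after ASIT and no longer passed. With Cy5 alone, SLC4A1 and KLF1 after ASIT, at 0.75 and 0.78, and the T and B cell lists there, at 0.70 and 0.71, did not pass, and AHSP before ASIT passed at 0.82.

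With Cy5 alone, the dimmer ALAS2 probe was at -1.29 in 0 vs. ctrl and -0.80 in 6 months vs. ctrl, and SLC4A1 at -0.12 in 0 vs. ctrl, each opposite to the ratio, while the medians of all tested probes were -0.44 and -0.37. After minus before ASIT, ALAS2 was at -0.03, KLF1 at -0.004 and the dimmer FECH probe at -0.004 with normexp and loess, and ALAS2 at -0.12, KLF1 at -0.22 and EPB42 at -0.03 in dogs 1 to 3 alone.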
